A study of Mus musculus with 21 samples.

Results

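The genes described here are those of the plasma membrane calcium pumps Atp2b1, Atp2b2 and Atp2b4 and of the sodium-calcium exchanger Slc8a1, which are 4 of the 22380 protein-coding genes annotated on mm9. They were chosen by name. For each, every peak of the 3 pooled VDR ChIP-seq lists and the 3 pooled ATAC-seq lists was taken that overlapped its window, meaning the gene body plus 60 kb on each side, and the number of single-sample lists that called the same interval was counted. The windows held 32 of 22882 pooled VDR-binding peaks in colon, 13 of 12702 in SI crypts and 22 of 18078 in SI villi. They held 23 of 39428 pooled ATAC peaks in colon, 32 of 74734 in SI crypts and 37 of 64782 in SI villi.

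The study mapped the vitamin D receptor (VDR) on chromatin and open chromatin in the mouse gut. VDR ChIP-seq was done on 4 samples each of colon, SI crypt and SI villus, all from C57BL/6 mice (C57BL/6J in the study's methods) given 10 ng/g of the active hormone 1,25(OH)2D3 by intraperitoneal injection 1 h before they were killed. These mice are given as 4 to 6 weeks old in the labels and as older in the study's methods. ATAC-seq, which cuts DNA where chromatin is open, was done on 3 samples of each compartment from C57BL/6 mice aged 90 days. The study's methods give these mice as untreated, while the protocol in the ATAC labels names the same hormone injection, so their treatment is uncertain. No vehicle-treated ChIP samples were analysed here, so no value below measures the effect of the hormone. Colon was the scraped mucosa of the whole colon, not split into crypt and surface cells, while SI crypts and villi came from the proximal small intestine and were separated by size on a filter. Colon, crypts and villi were taken from one group of mice, so the compartments are not independent animals, and the labels do not say which samples share a mouse.

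Calcium that enters an intestinal cell through channels of the luminal membrane is carried across the cell by binding proteins and must be pushed out on the blood side against a steep gradient. Plasma membrane calcium ATPases (PMCAs) do this with ATP, and sodium-calcium exchangers use the sodium gradient. Atp2b1 encodes PMCA1, the pump found in nearly every cell and the one best known from the basolateral membrane of enterocytes. Atp2b2 encodes PMCA2, best known from neurons, the inner ear and the lactating mammary gland. Atp2b4 encodes PMCA4, and Slc8a1 encodes NCX1, the main exchanger of heart and smooth muscle. VDR binds DNA as a heterodimer with RXR, typically at a DR3 element, a pair of 6-base half-sites of the AGGTCA kind in one direction with 3 bases between them.

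On mm9, Atp2b1 (ENSMUSG00000019943.8) lies on chr10:98377786-98488777 on the plus strand, and no other annotated protein-coding gene starts in its window. Atp2b2 (ENSMUSG00000030302.9) lies on chr6:113695663-113992607 on the minus strand, and its window holds the starts of Tatdn2, Ghrl and Sec13. Atp2b4 (ENSMUSG00000026463.10) lies on chr1:135599255-135697618 on the minus strand, with the starts of Zc3h11a, Lax1 and Gm17678 in its window. Slc8a1 (ENSMUSG00000054640.7) lies on chr17:81785359-82048947 on the minus strand, with the start of Gm11096. Positions below are distances of a peak's summit from the annotated gene start in kb, counted along the gene and negative upstream.

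Each pooled VDR list held peaks upstream and at the promoter of Atp2b1, and the mm9 sequences of these sites are shown because they differ in how closely they match the VDR element. Each is written 5′ to 3′ around the summit of the pooled peak, and the capitals mark the stretch closest to DR3 or, at −50.3 kb, where no such stretch was close, a TGANTCA match of the AP-1 kind.
−50.3 kb, chr10:98327429-98327529, plus strand, summit of the colon list: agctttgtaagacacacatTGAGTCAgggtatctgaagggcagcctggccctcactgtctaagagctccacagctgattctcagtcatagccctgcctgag
−42.9 kb, chr10:98334883-98334983, plus strand, summit of the colon list: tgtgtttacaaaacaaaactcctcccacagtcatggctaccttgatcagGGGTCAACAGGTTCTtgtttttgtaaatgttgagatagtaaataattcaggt
−34.7 kb, chr10:98342989-98343089, plus strand, summit of the SI villus list: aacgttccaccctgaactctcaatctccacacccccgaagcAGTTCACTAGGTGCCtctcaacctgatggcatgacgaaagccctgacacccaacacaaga
−17.0 kb, chr10:98360735-98360835, minus strand, summit of the colon list: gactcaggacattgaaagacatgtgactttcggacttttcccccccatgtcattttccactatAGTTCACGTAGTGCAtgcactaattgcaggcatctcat
Promoter, chr10:98377463-98377491, plus strand, beside the summit of the SI villus list: gtctcgcGGGTCACCCGGTGCAcaccggg

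The element was searched on both strands of the 200 bp centred on each summit, with its usual consensus, in which some bases of each half-site are free between a pair of letters, and mismatches were counted over the 12 bases of both half-sites. At −42.9 kb, −17.0 kb and the promoter the best stretch had 1 mismatch, and the first half-site matched exactly. Its middle lay 6 bp from the colon summit at −42.9 kb, 20 bp from the colon summit at −17.0 kb and 5 bp from the SI villus summit at the promoter. At −34.7 kb the first half-site matched exactly, the second held 2 mismatches, and the middle lay 2 bp from the SI villus summit. At −50.3 kb the best stretch in the 200 bp had 3 mismatches. Of all pooled peaks, a stretch with at most 1 mismatch was found in 10.4% in colon, 9.68% in SI crypts and 8.25% in SI villi, and one with at most 2 mismatches in 35.2% in colon, 29.8% in SI crypts and 28.9% in SI villi. TGANTCA was found at 7.38% of colon peaks, and in the Atp2b1 window it was also found near the −17.0 kb summit and at weak colon peaks at 56.1 and 77.1 kb. A match is a description of the letters and not a measured contact.

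A few facts of the libraries touch these genes. ChIP-seq libraries held 10588783 to 17970894 fragments, of which 3100376 to 14716273 were left after duplicates were removed, and gave 1136 to 13381 peaks. SI crypt sample 1 stood apart, with the most peaks (13381) from the fewest remaining fragments (28.5% of its total), so window counts and the promoter fit are also given without it, while the pooled SI crypt list includes it throughout. Pooled colon had 46166439 remaining fragments, against 25325174 in SI crypts and 34583701 in SI villi. A fold enrichment under 2.5 was found for 18.1% of colon peaks, 8.06% of SI crypt peaks and 12.6% of SI villus peaks, and the part of depth in this was not tested. Fold enrichment is the pileup at a peak's summit divided by the local background of the same library, as MACS2 gives it, and q values are given as −log10 q. An ATAC peak lay within 1 kb of the start of 5 of 5 epithelial marker genes in colon, SI crypt and SI villus alike. Marker genes of SI enterocytes had one at 1 of 5 in colon, 4 of 5 in SI crypts and 5 of 5 in SI villi. Colon marker genes had one at 4 of 5 in colon, 3 of 5 in SI crypts and 4 of 5 in SI villi, with none at Car1 in the list of any compartment, so these markers did not separate colon from SI. Crypt marker genes had one at 2 of 5 in colon and at 5 of 5 in both SI crypt and SI villus. Immune marker genes had none in the 3 lists.

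Atp2b1 held the most VDR-binding peaks of the 4 genes in each compartment. Its window held 24 pooled peaks in colon, 6 in SI crypts and 16 in SI villi, where the median gene had 2 in colon, 1 in SI crypts and 1 in SI villi. Only 8 of the 22380 genes, Atp2b1 included, had as many in colon, and 158 had as many in SI villi and 1288 in SI crypts. Per 100 kb of window the density was 10.4 peaks in colon, 2.60 in SI crypts and 6.93 in SI villi, above 99.5% of genes in colon, 86.8% in SI crypts and 96.7% in SI villi. Of the rest, Atp2b2 had 3 peaks in colon, 5 in SI crypts (more than 90.2% of genes) and 4 in SI villi. Per 100 kb of its longer window, its SI crypt density of 1.20 was above only 63.7% of genes. Atp2b4 had 3, 1 and 2 peaks in the same order, and Slc8a1 had 2, 1 and 0. Over the 4 genes, 16 of 32 colon peaks, 6 of 13 SI crypt peaks and 16 of 22 SI villus peaks were called in no single sample, where the share over whole lists was 50.8% in colon, 35.4% in SI crypts and 49.6% in SI villi.

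**Figure D1:**
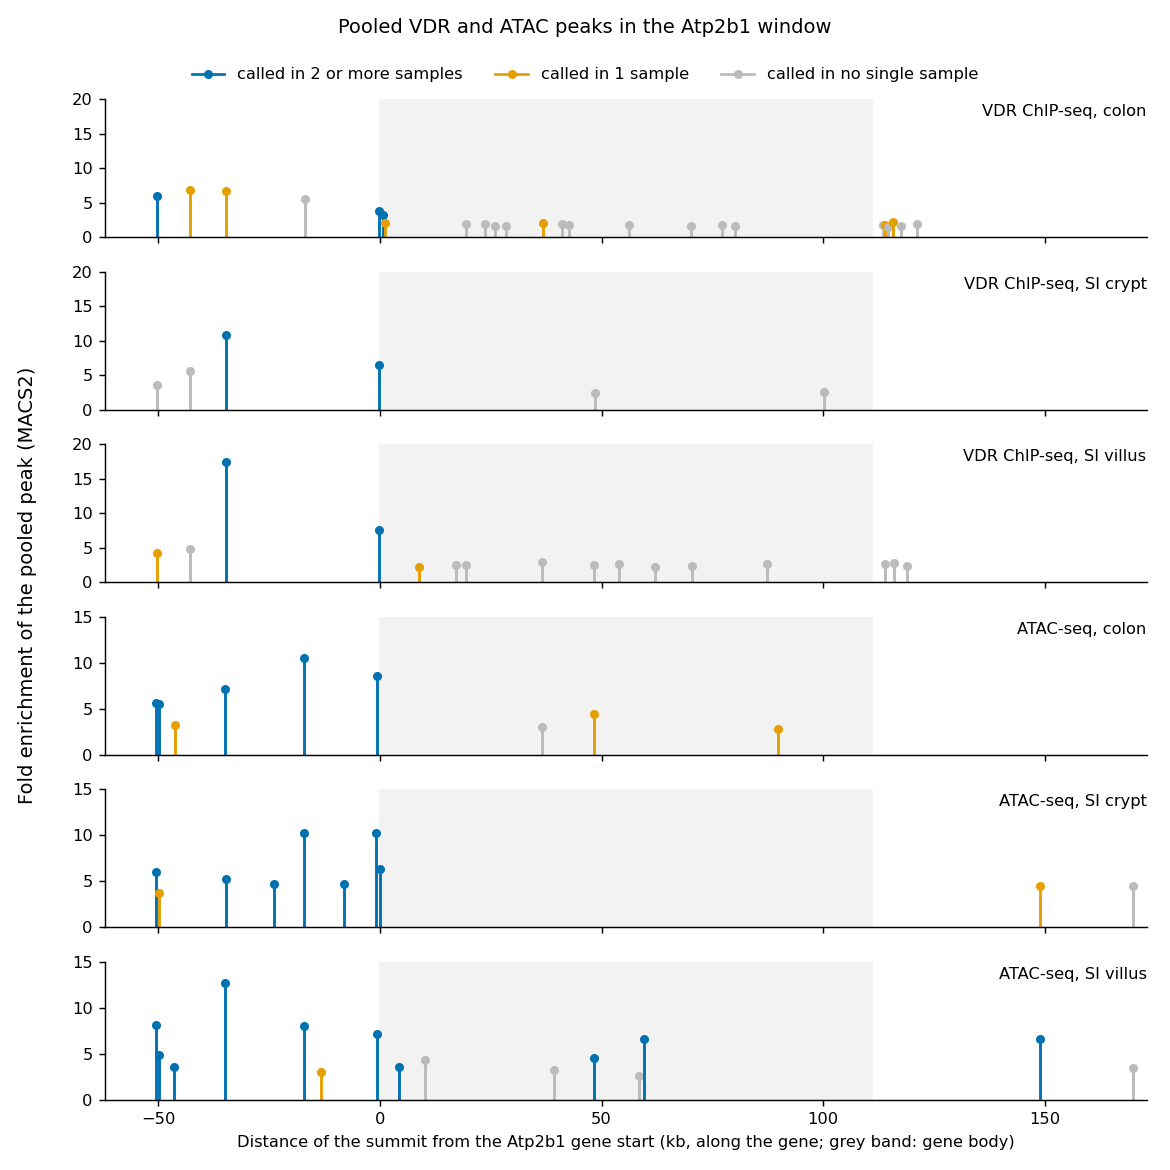
Pooled VDR and ATAC peaks in the Atp2b1 window, with the distance from the gene start in kb on the x axis, the fold enrichment of the pooled peak on the y axis, 1 panel for each list, colour for the number of single samples that call the peak, and a grey band for the gene body. Strong VDR-binding peaks stand upstream and at the promoter, up to 17.5 in SI villi, and the many peaks past 5 kb into the gene stay at or below 3.02.

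The peaks at Atp2b1 differed in strength with position. Upstream of the start there were 5 peaks in colon, 4 in SI crypts and 4 in SI villi, with fold enrichments of 3.86 to 6.92 in colon, 3.56 to 10.8 in SI crypts and 4.29 to 17.5 in SI villi. Within 5 kb after the start there were 2 more, both in colon, at 3.25 and 2.14. Further than 5 kb into the gene there were 11 peaks in colon at 1.65 to 2.08, 2 in SI crypts at 2.39 and 2.62, and 9 in SI villi at 2.25 to 3.02. Past the gene end there were 6 more in colon at 1.58 to 2.19 and 3 in SI villi at 2.44 to 2.75. Of the 11 colon gene-body peaks 10 were called in no single sample, and of the 9 SI villus ones 8. Only 28 genes had as many colon peaks as Atp2b1 further than 5 kb into the gene, and 87 genes in SI villi, and the counts above include this run of weak peaks. Kept to a fold enrichment of at least 2.5, a limit chosen after the values were seen, the 4 windows held 14 peaks in colon, 12 in SI crypts and 16 in SI villi. At Atp2b1 alone 6 remained in colon, 5 in SI crypts and 11 in SI villi, so SI villus then had the most, and 2575 genes had as many in colon, 1557 in SI crypts and 118 in SI villi. The SI villus peaks at 17.2 and 19.3 kb were kept at 2.50, right at the limit, and the one at 48.4 kb fell just under it at 2.49. The SI villus count and its rank thus depend on the exact limit. A DR3 stretch with at most 1 mismatch was found at 0 of 17 gene-body and downstream peaks in colon, 0 of 2 in SI crypts and 0 of 12 in SI villi, and one with at most 2 mismatches at 5 of 17, 2 of 2 and 3 of 12 in the same order, to be read beside the shares of all peaks given above. Of the gene-body peaks, 1 of 11 in colon, 0 of 2 in SI crypts and 1 of 9 in SI villi overlapped an ATAC peak of the same compartment.

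By pooled fold enrichment the strongest site of the 4 genes in SI crypts and SI villi was the one at −34.7 kb of Atp2b1, an intergenic site, while in colon those at −42.9 kb of Atp2b1 (6.92) and in Lax1 beside Atp2b4 (6.82) were higher. The pooled fold enrichment was 6.73 in colon, 10.8 in SI crypts and 17.5 in SI villi, with −log10 q of 16.9 in colon, 32.3 in SI crypts and 90.0 in SI villi, which was higher than for 96.4% of all SI villus peaks. In single samples the site had 8.50 in colon sample 4, 9.02 and 6.11 in SI crypt samples 2 and 4, and 15.1, 14.1, 7.08 and 11.3 in SI villus samples 1 to 4. SI villus alone called it in every sample, and its sample 3 was below the colon sample and one of the SI crypt samples. The number of samples that called it did not differ past the threshold, at 1 of 4 in colon against 4 of 4 in SI villi (Fisher's exact test, unadjusted p = 0.143) and 2 of 4 in SI crypts against 4 of 4 in SI villi (Fisher's exact test, unadjusted p = 0.429). With SI crypt and SI villus samples paired by number, only 2 pairs differed in their call. The exact McNemar test gave p = 0.5, the smallest that 2 such pairs allow, so it could not show a difference. The share of sites with calls like those of this site was not counted. For full separation, which this site did not show, 0.267% of all sites had all 4 SI villus samples and 0 colon samples. Another 0.0688% had all 4 SI villus samples and 0 SI crypt samples, and 0.0143% all 4 SI crypt samples and 0 SI villus samples.

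At −50.3 kb colon was highest. All 4 colon samples called the site, at 5.22, 5.67, 5.69 and 6.58, while no SI crypt sample called it and only SI villus sample 4 did, at 5.27. The pooled fold enrichment was 6.08 in colon, 3.56 in SI crypts and 4.29 in SI villi, so the pooled SI lists held the site too. Colon against SI crypt gave an unadjusted p of 0.0286 in Fisher's exact test, the smallest that 4 against 4 samples allow, and an adjusted p of 1 over 34864 sites. Of these sites 0.462% were called in all 4 colon samples and 0 SI crypt samples. Colon against SI villus gave an unadjusted p of 0.143 in Fisher's exact test, and 0.0286 without SI villus sample 4. With peaks limited to a −log10 q of at least 5, the unadjusted p for colon against SI crypt was 0.143.

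The site at −42.9 kb, with its close DR3 stretch, was in all 3 pooled lists, at 6.92 in colon, 5.70 in SI crypts and 4.81 in SI villi. It was called in a single sample only, colon sample 3 at 6.72. No pooled ATAC peak overlapped it in any of the 3 compartments. The site at −17.0 kb was in the pooled colon list alone, at 5.61, and no single sample called it, although the chromatin there was open in all 9 ATAC samples.

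**Figure D2:**
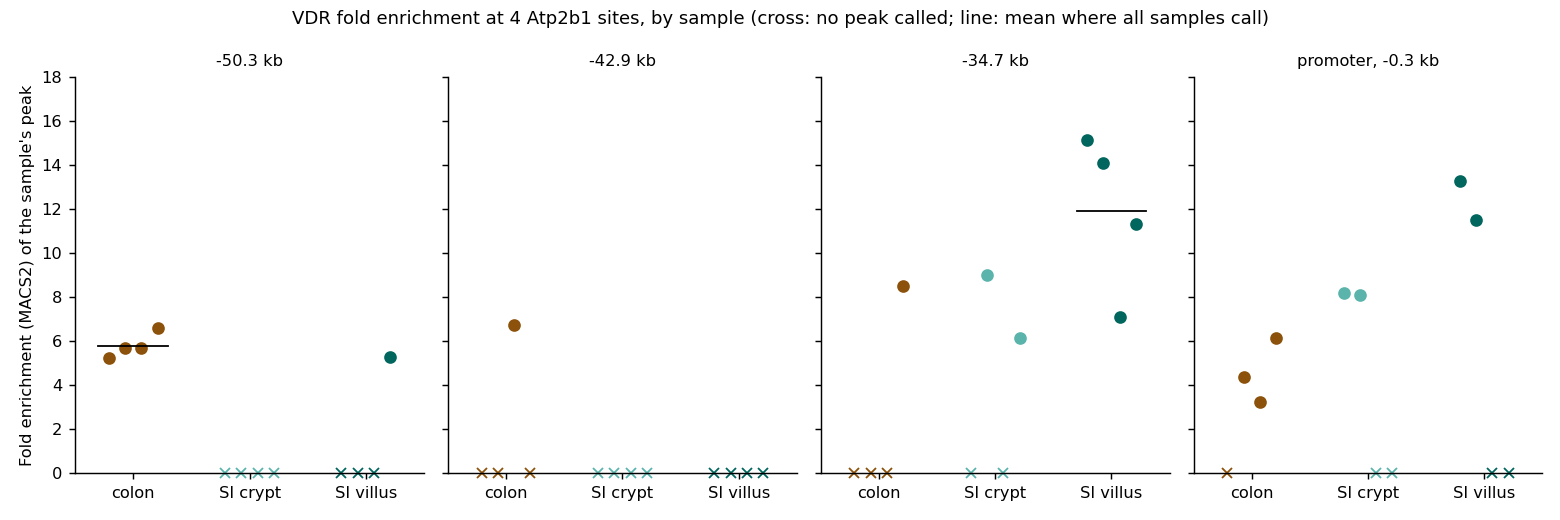
VDR fold enrichment in each of the 12 ChIP-seq samples at the sites at −50.3, −42.9 and −34.7 kb and at the promoter of Atp2b1, with compartments on the x axis, crosses for samples without a called peak and a line for the mean where all samples called. Colon fills the panel at −50.3 kb, between 5.22 and 6.58, and SI villus the panel at −34.7 kb, between 7.08 and 15.1.

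At the Atp2b1 promoter VDR was found in all 3 compartments. The pooled summit lay at −0.27 kb in colon with a fold enrichment of 3.86, at −0.25 kb in SI crypts with 6.50, and at −0.31 kb in SI villi with 7.57. RefSeq places a second Atp2b1 start at −0.51 kb (matched from GRCm38.p6), so these summits lie between both starts. Colon samples 2, 3 and 4 had 4.37, 3.24 and 6.16, SI crypt samples 1 and 2 had 8.18 and 8.11, and SI villus samples 1 and 2 had 13.3 and 11.5. As 5 of 12 samples had no peak and so no value, the order of the compartments rests on few values. This was the only VDR site of the 4 windows that could be fitted in limma when at least 2 samples of each compartment were asked for, and none of its contrasts passed. The log2 difference was −0.60 ± 0.31 (SE) for colon minus SI crypt (limma, adjusted p = 0.428), −0.95 ± 0.31 (SE) for colon minus SI villus (limma, adjusted p = 0.0784) and −0.35 ± 0.34 (SE) for SI crypt minus SI villus (limma, adjusted p = 0.843). Without SI crypt sample 1, which leaves that compartment 1 value, these were −0.55 (limma, adjusted p = 0.621), −0.95 (limma, adjusted p = 0.0578) and −0.41 (limma, adjusted p = 0.813). With SI crypt and SI villus samples paired by number, SI crypt minus SI villus was −0.35 ± 0.35 (SE) (limma, adjusted p = 0.786). Of 34864 VDR sites, 199 were called in all 12 samples and entered the main fit, and 0 of the 43 sites in the member windows were among them. Colon had further pooled peaks at 0.56 kb (3.25) and 1.09 kb (2.14), which ran into the promoter site when the lists were merged. A colon sample's value, its highest at the merged site, could therefore come from a peak past the start.

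Chromatin at these Atp2b1 sites was compared by the ATAC fold enrichment at the 10801 sites called in all 9 samples. Of these sites 22.2% differed between colon and SI crypt (13.5% lower in colon), 24.1% between colon and SI villus (15.1% lower in colon) and 8.43% between SI crypt and SI villus (4.38% lower in SI crypts). Only 5 sites in the member windows were among them, of which 3 were upstream of Atp2b1, 1 was the Tatdn2 promoter and 1 the Zc3h11a promoter. Between colon and SI crypt 0 of the 5 passed limma's test at an adjusted p of 0.05, and 0 had an unadjusted p under 0.05.

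The ATAC site at −50.6 kb, whose pooled peak overlapped the VDR-binding peak at −50.3 kb in colon and SI villus, was the 1 of the 5 that passed. It had 4.38, 5.51 and 7.98 in colon, 6.19, 4.02 and 4.62 in SI crypts, and 9.59, 11.0 and 7.53 in SI villi. SI villus was highest, although its lowest sample was below the highest colon sample. The log2 difference was −0.93 ± 0.18 (SE) for colon minus SI villus (limma, adjusted p = 0.00102) and −1.04 ± 0.18 (SE) for SI crypt minus SI villus (limma, adjusted p = 0.00197), with 0.12 ± 0.18 (SE) for colon minus SI crypt (limma, adjusted p = 0.681). Without centring each sample on its median, neither difference passed (limma, adjusted p = 0.0613 for colon minus SI villus and 0.0658 for SI crypt minus SI villus). The VDR-binding peak there, in contrast, was called in 4 of 4 colon samples and 1 of 4 SI villus samples. In colon and SI villi that VDR-binding peak also overlapped a second ATAC site, at −49.9 kb. The second site had 4.25, 6.65 and 4.97 in colon, 5.07 in SI crypt sample 1 alone, and 4.71, 5.22 and 4.36 in SI villi. SI villus was thus not above colon at the second site, which was not tested.

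At −34.9 kb SI villus had the highest pooled value in both ATAC and VDR. The pooled ATAC fold enrichment was 7.20 in colon, 5.26 in SI crypts and 12.7 in SI villi. The ATAC values were 5.90 and 9.78 in colon samples 2 and 3, 6.76 and 4.92 in SI crypt samples 1 and 2, and 14.3, 13.6 and 8.24 in SI villi, so colon sample 3 was above SI villus sample 3. As 1 colon and 1 SI crypt sample had no peak, the site entered only the fit over sites with at least 2 calls in each compartment. There it was lower in colon than in SI villi by a log2 difference of −0.84 ± 0.22 (SE) (limma, adjusted p = 0.0121) and lower in SI crypts than in SI villi by −1.08 ± 0.22 (SE) (limma, adjusted p = 0.00942). In that fit 4313 of 16302 sites passed between colon and SI villus, of which 2461 were lower in colon. Between SI crypt and SI villus 1429 of 16302 passed, of which 712 were lower in SI crypts.

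The other shared sites upstream of Atp2b1 did not pass. At −17.1 kb the samples had 8.85, 10.2 and 11.9 in colon, 7.79, 8.76 and 11.0 in SI crypts, and 7.98, 7.27 and 6.78 in SI villi. At −0.78 kb, the promoter, they had 11.5, 10.5 and 10.8 in colon, 11.5, 12.2 and 11.1 in SI crypts, and 7.31, 8.31 and 8.01 in SI villi. All SI villus values at the promoter were below all others, but after centring the log2 difference was 0.23 ± 0.18 (SE) for colon minus SI villus (limma, adjusted p = 0.378) and 0.44 ± 0.18 (SE) for SI crypt minus SI villus (limma, adjusted p = 0.135). With the depth-scaled pileup in place of the fold enrichment, colon minus SI villus did pass at the promoter, at 0.75 (limma, adjusted p = 0.00408).

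**Figure D3:**
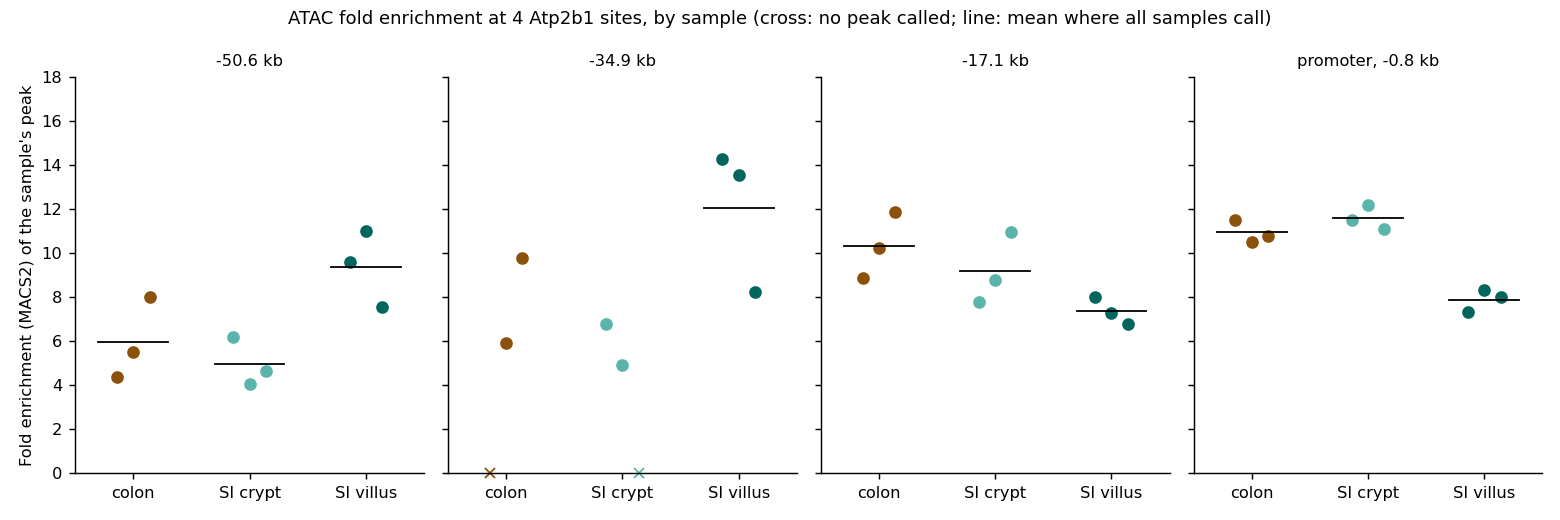
ATAC fold enrichment in each of the 9 ATAC-seq samples at 4 sites upstream of Atp2b1, with compartments on the x axis, crosses for samples without a called peak and a line for the mean where all samples called. SI villus spans 7.53 to 14.3 at −50.6 and −34.9 kb, where colon sample 3 lies above its lowest sample at both sites, and is lowest at the promoter, between 7.31 and 8.31.

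Inside Atp2b1 some open sites were called in SI villi only, a pattern that 2.23% of all 99309 ATAC sites had with calls in all 3 SI villus samples. The intronic site at 59.7 kb had 7.45, 7.19 and 4.85 in the 3 SI villus samples and no call in colon or SI crypt. The site at 4.35 kb had 3.56, 3.92 and 5.59 in SI villi and again no call elsewhere. Neither coincided with a pooled VDR-binding peak.

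No VDR-binding peak lay inside the Atp2b2 gene body in any of the 3 pooled lists, and all those in its window lay past its 3′ end. Their nearest starts were those of Tatdn2 and Sec13, a subunit of the nuclear pore and of the COPII coat. The strongest peak, at 345.6 kb, was at the start of Tatdn2, with 5.60 and 4.11 in colon samples 1 and 2, 9.63 in SI crypt sample 1, and 6.49, 5.78 and 5.40 in SI villus samples 1, 2 and 4. The pooled fold enrichment there was 3.37 in colon, 4.87 in SI crypts and 5.85 in SI villi. Near the start of Sec13, at 302.3 kb, SI crypt sample 1 had 5.32 and SI villus sample 1 had 4.89. These values describe the neighbours of Atp2b2.

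Open sites did occur within Atp2b2, mostly in SI. The intronic site at 29.7 kb had 8.71, 7.50 and 5.95 in SI crypts, against 6.30 in SI villus sample 1 alone, and the one at 18.8 kb had 6.71, 4.28 and 5.79 in SI crypts, against 6.34 and 6.87 in SI villus samples 1 and 2. Neither was called in colon, and 7.52% of all ATAC sites were called in all 3 SI crypt samples and 0 colon samples. Neuronal marker genes had an ATAC peak at their start at 0 of 5 in colon, 3 of 5 in SI crypts and 2 of 5 in SI villi, and their part in the Atp2b2 result was not tested. Beside Sec13, the site at 305.1 kb was called in all SI crypt samples at 8.09, 8.63 and 6.87 and in all SI villus samples at 8.44, 6.89 and 6.62, and in 0 of 3 colon samples, as 2.7% of all ATAC sites were.

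In the pooled lists Atp2b4 had a VDR-binding peak at its own start in colon only. It lay at −0.30 kb, with a pooled fold enrichment of 4.86 and a call in colon sample 4 at 5.37. The Atp2b4 start was open in SI, at 4.13 in SI crypt sample 3 and at 4.27 and 5.51 in SI villus samples 1 and 2, and no single colon sample called it, but the pooled colon list held it at 3.31. The strongest VDR-binding peak of the window, at 115.1 kb, lay past the gene in an intron of Lax1, an adaptor protein of lymphocytes. It had 5.04 and 7.96 in colon samples 2 and 4 and no call in another compartment, with a pooled fold enrichment of 6.82 in colon, 3.80 in SI crypts and 3.81 in SI villi. ATAC went the other way at this site, with 10.4, 9.60 and 10.9 in SI crypts, 8.48, 6.91 and 6.75 in SI villi, and 0 of 3 calls in colon, where only the pooled list held it, at 3.47. Of all ATAC sites 2.7% were likewise called in all SI crypt and SI villus samples and in 0 colon samples. The ATAC site at 130.5 kb, 9.1 kb upstream of Zc3h11a, was called in all SI crypt samples at 9.95, 8.04 and 10.3, and in SI villus sample 2 alone at 7.99. No colon sample called it, and 7.52% of all ATAC sites were called in all 3 SI crypt samples and 0 colon samples. A colon peak at 142.3 kb inside Zc3h11a had 3.29 in colon sample 3.

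Slc8a1 was the reverse of Atp2b4 in its open chromatin, with calls mainly in colon. The intronic site at 97.1 kb had 4.59, 5.90 and 9.04 in the 3 colon samples and no call in a single SI crypt or SI villus sample, a pattern of 1.07% of all ATAC sites, while the pooled SI crypt list held it at 4.01. The site at 95.1 kb had 5.59 and 6.07 in colon samples 2 and 3, and the pooled colon VDR-binding peak at 95.2 kb (4.19) overlapped it. At −20.6 kb, upstream of the gene, the samples had 4.51, 3.73 and 5.17 in colon and 5.08 and 4.60 in SI crypt samples 2 and 3, with none in SI villi. Smooth muscle marker genes had an ATAC peak at their start at 0 of 5 in colon, 1 of 5 in SI crypts and 1 of 5 in SI villi, and the part of muscle cells in the Slc8a1 result was not tested. The pooled VDR-binding peaks within the gene were called in colon sample 4 only, at 4.92 at 150.6 kb and at 4.81 at 95.2 kb. SI crypt sample 1 added 4.46 at the pooled peak at 295.9 kb, past the gene end. Single-sample peaks outside the pooled lists were counted per window but not placed. No pooled SI villus peak, VDR or ATAC, lay in the Slc8a1 window, and the single-sample lists of SI villus held none either.

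**Figure D4:**
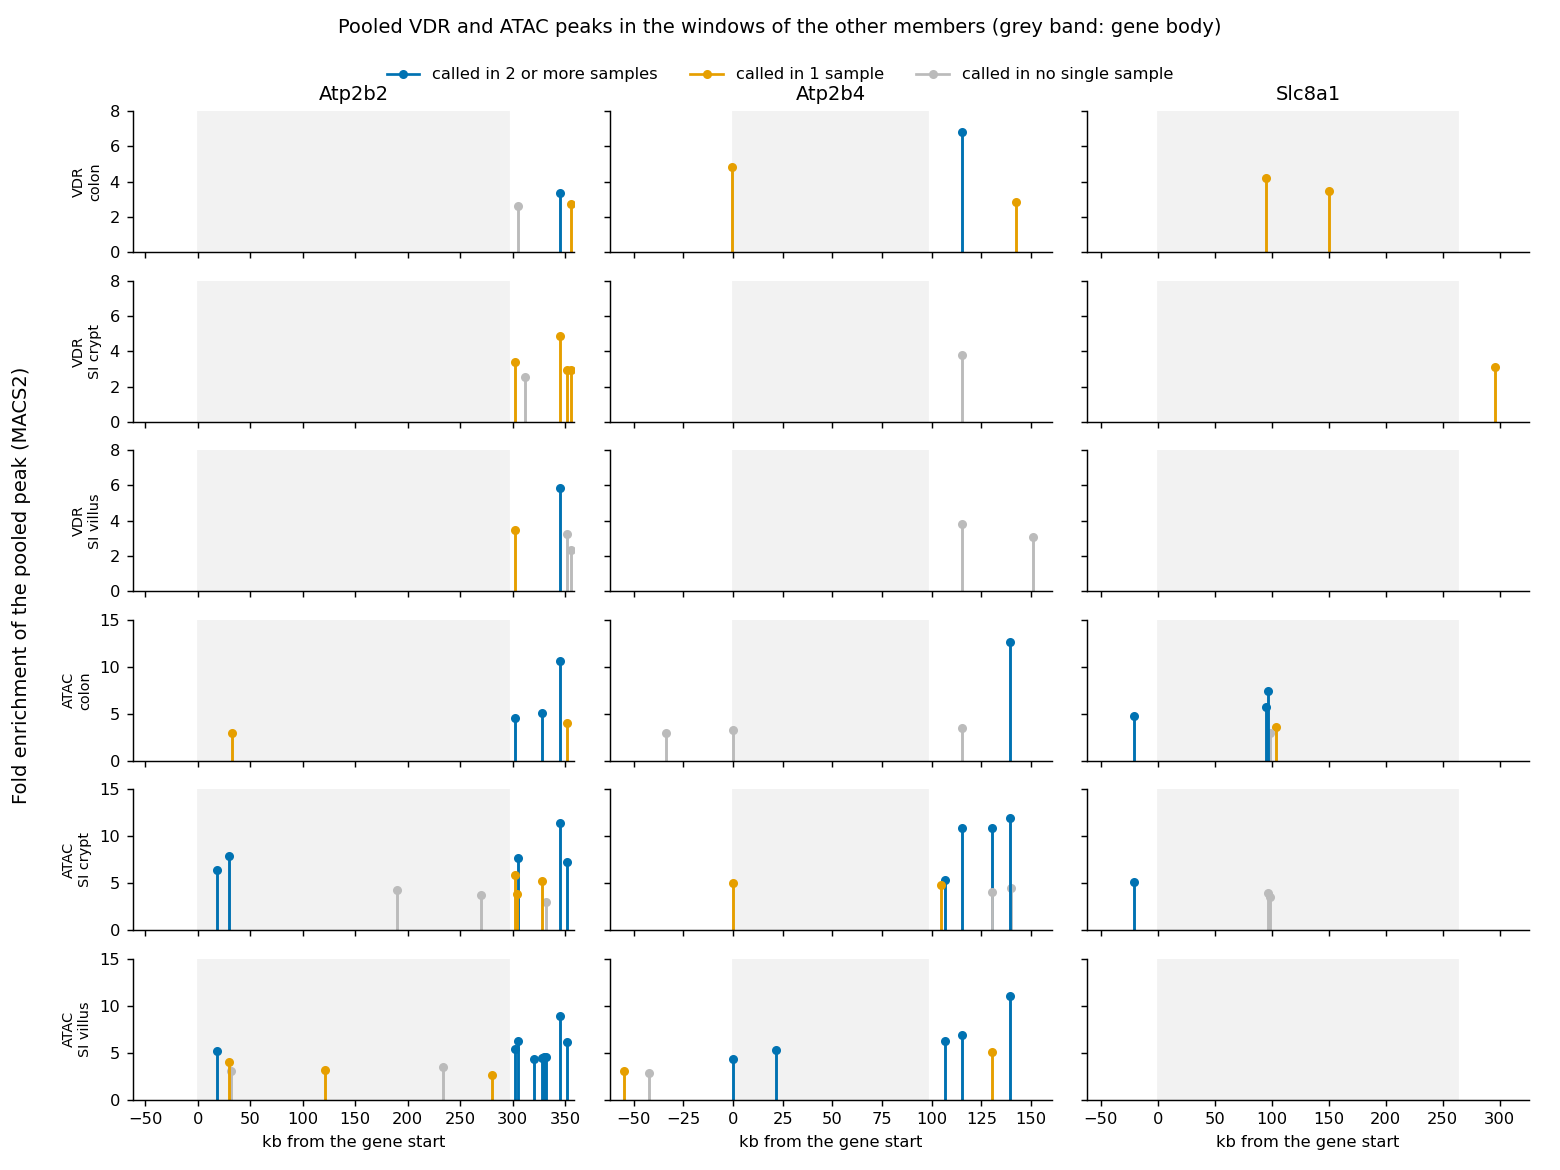
Pooled VDR and ATAC peaks in the windows of Atp2b2, Atp2b4 and Slc8a1, with the distance from the gene start in kb on the x axis, the fold enrichment of the pooled peak on the y axis, colour for the number of single samples that call the peak, and a grey band for the gene body. Atp2b2 has its VDR-binding peaks past the gene end only, and the Slc8a1 window has no peak in SI villi.

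Counts per sample put the same differences on the level of whole windows. The Atp2b1 window held 1, 2, 5 and 10 VDR-binding peaks in colon samples 1 to 4, 4, 2, 0 and 1 in SI crypts, and 3, 2, 1 and 2 in SI villi. The groups overlapped, and the mean of 4.50 ± 4.04 in colon did not differ past the threshold from 1.75 ± 1.71 in SI crypts (SD, n = 4 each, exact permutation test, p = 0.314) or from 2.00 ± 0.82 in SI villi (SD, n = 4 each, exact permutation test, p = 0.4). Between SI crypt and SI villus the exact permutation test gave p = 1, and p = 1 also over the 4 pairs of equal number. Without SI crypt sample 1 the exact permutation test gave p = 0.286 for colon against SI crypt and p = 0.286 for SI crypt against SI villus. Of all genes, 1% had an unadjusted p under 0.05 for colon against SI crypt, 2.19% for colon against SI villus and 0.0525% for SI crypt against SI villus, and 0 genes passed after adjustment. With each sample limited to the same number of its strongest peaks, the Atp2b1 difference for colon minus SI villus turned to −1.5 peaks (exact permutation test, unadjusted p = 0.0286). This is the smallest p that 4 against 4 samples allow, and no gene passed after adjustment in that setting either. Every SI crypt call at Atp2b2, Atp2b4 and Slc8a1 came from sample 1, with 5, 1 and 2 peaks, and without it these windows held 0 VDR-binding peaks in SI crypts.

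ATAC counts per window separated some compartments fully, for which the exact permutation test of 3 against 3 samples can give no less than p = 0.1. The Atp2b1 window had 4, 6 and 7 ATAC peaks in colon, 8, 6 and 6 in SI crypts, and 11, 11 and 10 in SI villi, so SI villus was above both others (exact permutation test, p = 0.1 each). Every SI villus sample was above every colon sample at 37.1% of all genes, and above every SI crypt sample at 4.72%, with the reverse order of SI crypt and SI villus at 5.55%. Atp2b4 had 1, 1 and 1 ATAC peaks in colon, 4, 5 and 6 in SI crypts, and 6, 7 and 3 in SI villi, and 33.6% of genes likewise had every SI crypt sample above every colon sample. Slc8a1 had 3, 3 and 4 ATAC peaks in colon, 0, 1 and 1 in SI crypts, and 0, 0 and 0 in SI villi. Every colon sample was above every SI crypt sample at 0.734% of genes, and above every SI villus sample at 0.995%, so Slc8a1 went against the direction of most genes that separated. Atp2b2 had 1, 4 and 7 ATAC peaks in colon, 8, 6 and 8 in SI crypts, and 11, 12 and 7 in SI villi.

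**Figure D5:**
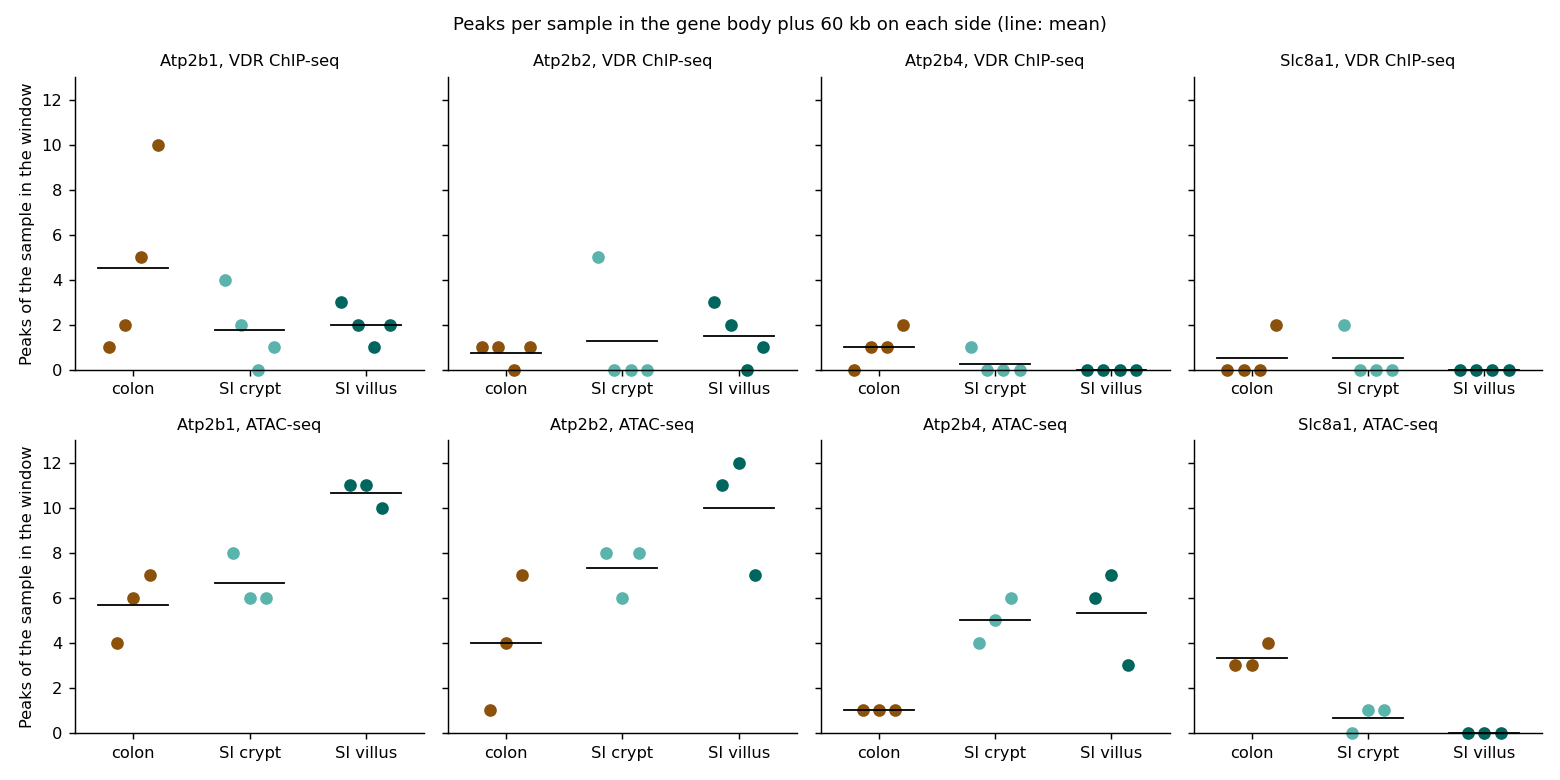
Number of peaks of each sample in the window of each gene, VDR ChIP-seq above and ATAC-seq below, with compartments on the x axis, 1 point per sample and a line for the mean. Colon sample 4 has 10 VDR-binding peaks at Atp2b1, and colon is the highest compartment only at Slc8a1 in the ATAC panels.

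Over the 4 genes, the share of VDR-binding peaks in open chromatin was set beside that of the whole list of each compartment, with no test between them. In colon 8 of 32 overlapped an ATAC peak (25%, Wilson 95% interval 13.3 to 42.1%), where the share of all colon peaks was 41.9%. In SI crypts 5 of 13 did (38.5%, Wilson 95% interval 17.7 to 64.5%), against 50.4% of all. In SI villi 8 of 22 did (36.4%, Wilson 95% interval 19.7 to 57.0%), against 56.3% of all. Each of the 3 intervals held the value of its whole list. With VDR-binding peaks limited to a −log10 q of at least 5, 8 of 16 in colon (50%), 3 of 5 in SI crypts (60%) and 6 of 8 in SI villi (75%) overlapped one, beside 50.0% of all such colon peaks, 61.1% of SI crypt peaks and 66.3% of SI villus peaks. These intervals cover counting error only.

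Other genes of calcium handling are given by counts beside those of all genes. Of 14 further pumps and exchangers, 12 had a pooled peak in their window in colon, 10 in SI crypts and 11 in SI villi, where 71.6% of all genes did in colon, 63.2% in SI crypts and 67.2% in SI villi. A peak called in at least 2 samples was found at 7 of the 14 in colon, 3 in SI crypts and 6 in SI villi, where the shares of all genes were 40.7%, 22.9% and 38.0%. Slc8a3, which encodes the exchanger NCX3, had no pooled peak in colon, but 1 at 18.6 in SI crypts and 1 at 22.2 in SI villi. Slc8b1, the mitochondrial exchanger, reached 8.13 in colon, 11.8 in SI crypts and 16.5 in SI villi. Atp2b3, the remaining PMCA gene, had 1 peak at 4.86 in colon, none in SI crypts and 1 at 4.41 in SI villi.

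The 6 genes of calcium entry and buffering had a pooled VDR-binding peak at 6 in colon, 5 in SI crypts and 5 in SI villi. Of all genes, 71.6% had one in colon, 63.2% in SI crypts and 67.2% in SI villi. The values below are the highest of each list over a whole window and need not lie at the same site. S100g, which encodes the binding protein calbindin-D9k, reached 14.0 in colon, 15.5 in SI crypts and 12.7 in SI villi. The channel genes Trpv5 and Trpv6 are neighbours and share peaks, so they are counted with the same peaks. Their strongest peak had 7.67 in colon, 8.01 in SI crypts and 6.44 in SI villi, and 0 of their SI crypt peaks were called in at least 2 samples. Nptn, which encodes a subunit of the PMCAs, reached 12.5 in colon, 9.98 in SI crypts and 10.9 in SI villi.

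By the number of VDR-binding peaks per sample over 12 samples, the gene most like Atp2b1 was Tm7sf3 (Pearson r = 0.88), and the gene most like Slc8a1 was Pcf11 (r = 0.91). For Atp2b4, Ctxn1 and Gm14378 were tied (r = 0.97), and for Atp2b2, 4933402P03Rik and Fgf11 were tied (r = 0.92). These correlations are over small counts from libraries of unlike peak number and are given as a description.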

How the data were processed

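VDR ChIP-seq was done on 12 samples and ATAC-seq on 9. Alignment with Bowtie2 2.2.6 to mm9 and peak calling with MACS2 2.1.0.20150731 are taken from the submitters' processing notes. Per the file headers, peaks needed a q value of 0.05, no control library was used, 1 duplicate was kept, and calling was run per sample and per merged compartment. The deposited values are the fold enrichment (the ratio of summit pileup to local background), −log10 q, and the pileup, an unscaled signal. A fold enrichment is relative to its own library, so a sample without a call has no value rather than a 0. In the pooled lists the authors centred each interval on its summit. They shifted and extended ATAC tags by lengths that differ between lists, whose part in the results was not tested. The authors' DiffBind lists hold their own comparisons and were not used.

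Overlap meant at least 1 bp. Pooled peaks of the 3 compartments were merged into sites, and a sample's value at a site was its highest fold enrichment. Log2 values, centred on each sample's median, were fitted with limma 3.58.1 in R 4.3.3 over sites called in every sample. Calls per site were compared with Fisher's exact test and peaks per window with an exact permutation test. Tests were two-sided, with Benjamini-Hochberg adjustment over all sites or genes. Other steps used Python 3.11.15, scipy 1.17.1 and pysam 0.24.0. The fits, overlaps and permutation tests were tested on made-up data with known answers. The overlaps and permutation tests gave 0 differences. For colon against SI crypt, limma recovered 89.5% of 200 changed ATAC sites but only 22.5% of 40 changed VDR sites. A VDR difference that did not pass is thus weak evidence of no difference. Genes and sequences came from mm9, whose annotation names Slc8b1 as Slc24a6. RefSeq promoters (GRCm38.p6) of Atp2b1, Atp2b2 and Atp2b4 were matched to mm9 by sequence.

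Single sites were taken from those that at least 2 samples of a compartment called, that lay within 5 kb of a member's start, or that were the strongest of a list. Not every ATAC site of this kind was described, so the ATAC sites in the text are a selection. Further sites in the text were chosen after their values were seen. The members, gene lists and markers were chosen with earlier results of these data known. A further list of genes is not reported here in full. Alternatives changed the centring, the measure, the sites, the window, the q limit, the number of peaks and the samples. Alternatives with fold enrichment of at least 2.5, the promoter fit without SI crypt sample 1 and the paired tests of SI crypt against SI villus were chosen after seeing the data. The p-values measure the spread between samples, which come from one group of mice. By sample number, deviations from the compartment mean correlated at 0.199 to 0.73 for VDR in SI crypts and SI villi. Each other contrast had at least 1 pair below 0.1. Samples of unlike number correlated at −0.691 to 0.638 in SI crypts and SI villi. SI crypt sample 1 correlated more with SI villus sample 2 (0.638) than with SI villus sample 1 (0.596). The numbers were treated as pairs of SI crypt and SI villus, but this pairing is uncertain. The labels do not say where this pairing comes from.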

Additional observations from a re-analysis of the deposited data

Results flagged for a closer look

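Among the 4 samples of a compartment, a sample was looked at again where its gap to the nearest other sample was larger than Dixon's 95% critical value allows, which chance gives for about 1 in 20 groups, and more easily with counts this small. SI crypt sample 1 was the highest of its compartment in the number of VDR-binding peaks at Atp2b2 (5 peaks), Atp2b4 (1 peak) and Slc8a1 (2 peaks), with 0 in each of the other SI crypt samples. It also stood apart in the whole list, with 13381 peaks, against 1136 to 2480 in the other SI crypt samples. Colon sample 4 was the highest at Slc8a1 (2 peaks, the other colon samples 0). Colon sample 3 was the lowest at Atp2b2 (0 peaks, the other colon samples 1). The part of library quality in these counts was not tested.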

How the results depend on the processing

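At the −50.6 kb ATAC site of Atp2b1, colon minus SI villus and SI crypt minus SI villus kept their direction under every alternative fitted and their side of the threshold except without centring, where colon minus SI villus was −0.68 and SI crypt minus SI villus −0.93. Peaks called in a few samples are a limit, since 0 of 43 VDR sites in the member windows could be fitted with a value in all samples. The pooled VDR-binding peaks of the 4 windows fell to 16 (colon), 5 (SI crypt) and 8 (SI villus) at a −log10 q of at least 5, to 5, 2 and 3 when called in at least 2 samples, to 14 in colon, 12 in SI crypts and 16 in SI villi at a fold enrichment of at least 2.5, and to 6 in SI crypts with 20 kb on each side. The pooled ATAC peaks fell to 13, 17 and 21 with 20 kb on each side and to 12, 17 and 24 when called in at least 2 samples. The share in open chromatin moved to 50% in colon and 75% in SI villi at a VDR −log10 q of at least 5.

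Over whole tables, the number of VDR sites that differed was 7 for colon against SI crypt, 20 for colon against SI villus and 0 for SI crypt against SI villus. It was 0, 2 and 0 without centring, 13, 33 and 1 with the depth-scaled pileup, and 8, 56 and 0 over sites with at least 2 calls per compartment. The number of ATAC sites was 2393, 2604 and 910 in the same order, 992, 1811 and 103 without centring, 3809, 4492 and 1976 with the pileup, and 3739, 4313 and 1429 over sites with at least 2 calls. The centring removed median differences of 0.10, 0.24 and 0.12 in ATAC and of −0.19, −0.40 and −0.20 in VDR. Leaving out 1 sample gave 0 to 8, 1 to 28 and 0 to 0 VDR sites and 1617 to 2671, 1621 to 2679 and 397 to 959 ATAC sites. With the sample number as a replicate block, the VDR counts were 7, 25 and 0 and the ATAC counts 2286, 2462 and 801. The block changed no call at the 5 ATAC sites fitted, nor, in SI crypt and SI villus samples alone, at the Atp2b1 promoter in VDR. Paired exact tests of SI crypt against SI villus gave p = 0.5 to 1 for the member windows and sites. At the sites each p was the smallest that the few differing pairs allow, so no difference could pass there.

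Some differences that passed no test changed sign. With the pileup, colon minus SI crypt was −0.20 at −17.1 kb and 0.25 at −0.78 kb of Atp2b1 and 0.45 (limma, adjusted p = 0.048) at the Tatdn2 promoter, where it was 0.0886 without centring and 0.0148 over sites with at least 2 calls. The pileup also moved colon minus SI villus past the threshold at the Tatdn2 promoter, to 0.81 (limma, adjusted p = 0.00159). Without 1 sample, colon minus SI crypt ranged from −0.0457 to 0.25 at −50.6 kb, from −0.11 to 0.16 at −17.1 kb, from −0.13 to 0.0565 at the Tatdn2 promoter and from −0.0525 to 0.20 at the Zc3h11a promoter, where colon minus SI villus ranged from −0.072 to 0.22 and SI crypt minus SI villus from −0.14 to 0.15. In VDR-binding peaks per window, colon minus SI crypt was 0.123 per 1000 peaks at Atp2b2, and −0.5 at Atp2b1 with equal numbers of strongest peaks, where colon minus SI villus was −1.5. With 20 kb on each side, SI crypt minus SI villus was 0.5 at Atp2b1 and 0.25 at Atp2b2. Without 1 sample, colon minus SI crypt ranged from −0.917 to 0.75 at Atp2b2, and SI crypt minus SI villus from −1 to 0.333 at Atp2b1 and from −1.5 to 0.25 at Atp2b2. In ATAC peaks per window, colon minus SI crypt at Atp2b1 was 0.0623 per 1000 peaks and 1.33 with equal numbers of strongest peaks, where SI crypt minus SI villus was 0.667 at Atp2b2 and 0.333 at Atp2b4. Without 1 sample it ranged from −1.5 to 0.5 at Atp2b4. The cause was not tested. Of the values beside the main counts under an alternative, 640 were labelled the same and 33 changed sign. A further 2 gained and 2 lost their call, and 25 counts over whole tables shifted. For calls per site only the sign was compared, and no gene window passed under any setting. The 640 are therefore in part fixed in advance and are no measure of stability.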
